A study of Homo sapiens with 4 samples.

Results

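The kinesins and tubulins are the motors and the building blocks of the microtubule cytoskeleton. Alpha and beta tubulin form the dimers of the microtubule wall, and the gamma-tubulin ring complex starts new microtubules. Kinesins use ATP to walk along microtubules or to shorten them, and they carry cargo in interphase and build the spindle and the midzone in mitosis. In proliferating liver cancer cells the mitotic kinesins are made mainly in the G2 and M phases of the cell cycle.

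Members were the protein-coding genes of GENCODE release 29 whose symbol is KIF with a number, KIFC with a number, or begins with TUBA, TUBB, TUBG, TUBD1 or TUBE1. This rule gave 71 of 19951 protein-coding genes. They comprised 17 mitotic kinesins, 25 transport kinesins and 29 tubulins. Most kinesins of cilia and kinesins with other or little-known roles were counted with the transport kinesins. The 5 gamma-tubulin complex proteins (TUBGCP2 to TUBGCP6) were counted with the tubulins, because the symbol rule includes them. The mitotic centromere motor CENPE has no KIF symbol and is described apart.

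The cells were HepG2 and Huh7, 2 established cell lines derived from human liver cancers. Sonodynamic therapy (SDT) uses ultrasound to switch on a sensitizer taken up by cells, and here targeted nanobubbles carried the sensitizer HMME together with lonidamine (LND), an inhibitor of energy metabolism. The 4 groups were HepG2 cells before SDT (group A), HepG2 cells after SDT with these nanobubbles (group B), Huh7 cells before SDT (group C) and Huh7 cells after the same treatment (group D), with 1 library of total RNA depleted of ribosomal RNA in each. No group analysed here received ultrasound, nanobubbles, HMME or LND alone, so their parts in any difference cannot be told apart.

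For the comparisons B vs. A (HepG2) and D vs. C (Huh7), the deposited tables name the mRNAs that the authors called differentially expressed, under each GO term and KEGG pathway that holds them. A gene is called listed here when it appeared under any GO term of that comparison. The tables give neither levels nor the direction of change, and with 1 library per group no call has a replicate check. A gene that is not listed may have been unchanged, too weakly expressed to be called, or without a GO term. Fewer dividing cells and less RNA per cell cannot be told apart in such bulk samples. The depth of the libraries was not used here, and the cell lines could not be checked against marker levels.

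In HepG2 cells 22 of the 71 kinesin and tubulin genes were listed (31.0%), compared with 14 (19.7%) in Huh7 cells. Among all protein-coding genes the shares were 23.9% for HepG2 cells and 21.9% for Huh7 cells. The share of all members was therefore above that of protein-coding genes in HepG2 cells and slightly below it in Huh7 cells. A total of 8 members were listed in both cell lines, namely KIF11, KIF20A, KIF22, KIF23, KIF5A, KIF12, TUBB and TUBE1. This was 11.3% of the members, against 11.4% of all protein-coding genes. The shared members made up 36.4% of the HepG2 members and 57.1% of the Huh7 members, and the corresponding values of all protein-coding genes were 47.7% and 52.2%. Another 14 members were listed in HepG2 cells alone, 6 in Huh7 cells alone, and 43 in neither. Whether a member responded differently in the cell lines was not tested, since a list gives no size of a change. Listed members appeared under 65 (KIF6) to 331 (KIF14) GO terms each, a number set by their annotation.

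**Figure D1:**
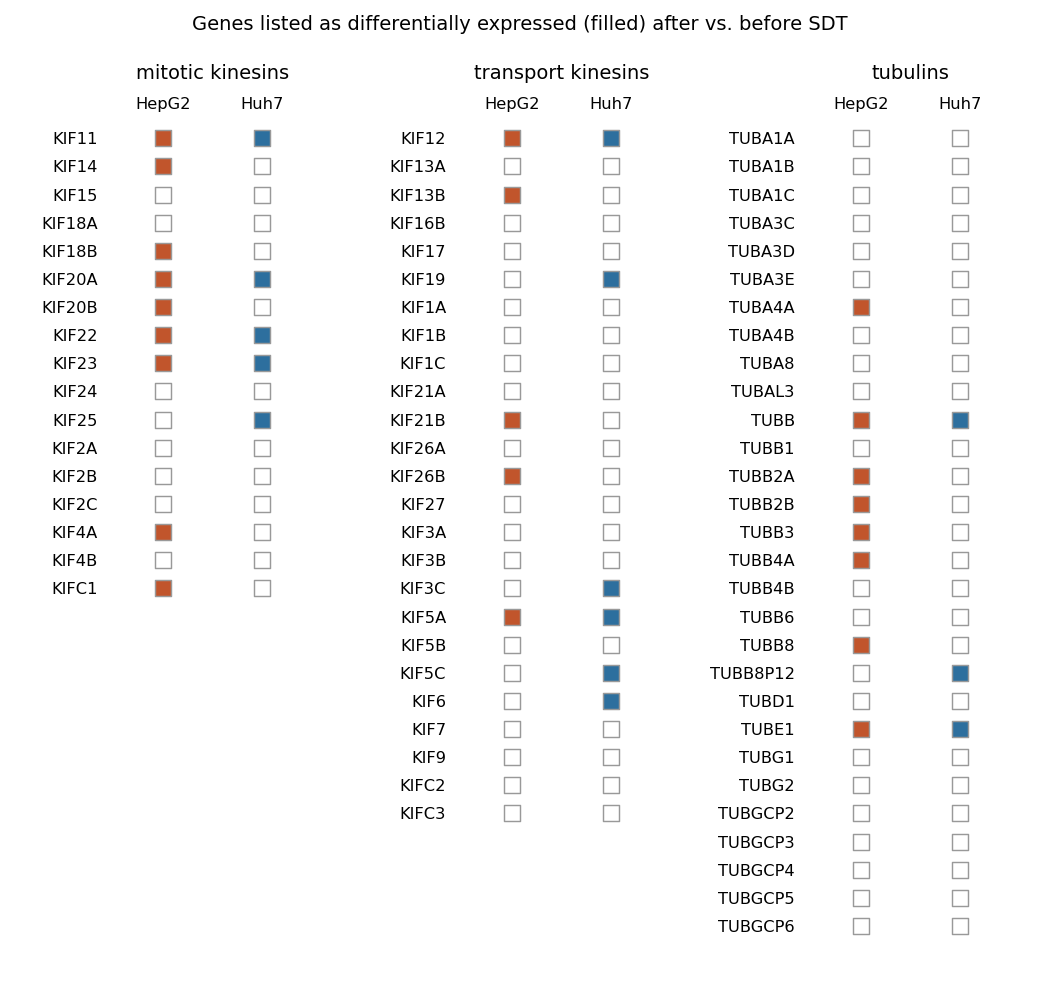
Each row is a kinesin or tubulin gene and each column a cell line, and a filled square marks a gene listed as differentially expressed after against before SDT (1 library in each group). In HepG2 cells, squares are filled for 9 of 17 mitotic kinesins and 6 of 10 beta tubulins, beside 23.9% of all protein-coding genes listed. The TUBG and TUBGCP rows are empty in both columns.

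Mitotic kinesins. Of all protein-coding genes, 23.9% were on the HepG2 list, 21.9% on the Huh7 list and 11.4% on both. The HepG2 list held 9 of the 17 mitotic kinesins (52.9%) and the Huh7 list held 5 (29.4%), with 4 (23.5%) in both. These 4 were KIF11, the motor that pushes the spindle poles apart, KIF22, which binds chromosome arms, and the cytokinesis motors KIF20A and KIF23 of the central spindle. In HepG2 cells the list also held KIF14 and KIF20B, which act late in cytokinesis, KIF4A, a motor of chromosomes and the spindle midzone, KIF18B, which shortens astral microtubules, and KIFC1, a minus-end motor that focuses spindle poles. In Huh7 cells the only further mitotic kinesin was KIF25, a little-studied minus-end motor. The 7 mitotic kinesins in neither list were KIF15, KIF18A, KIF24, KIF2A, KIF2B, KIF2C and KIF4B. KIF2A, KIF2B and KIF2C are kinesins that take microtubules apart instead of walking on them, KIF15 can stand in for KIF11, and KIF4B is an intronless copy of KIF4A. KIF2A, KIF24 and KIF25 have several roles and were counted here with the mitotic kinesins.

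The GO term cytokinesis (152 background genes) had 40 genes on the HepG2 list, of which 5 were kinesins (KIF14, KIF20A, KIF20B, KIF23 and KIF4A). It had 27 on the Huh7 list, of which 2 were kinesins (KIF20A and KIF23). These are 26.3% and 17.8% of the genes of the term, beside 21.6% and 19.7% of all 22148 genes of the GO background. Mitosis (290 background genes) held 73 and 54 listed genes (25.2% and 18.6%), with 8 and 4 kinesins among them. Mitotic cell cycle (982 background genes) held 209 and 173 (21.3% and 17.6%), with 17 and 8 kinesins and tubulins among them. The Huh7 shares of these 3 terms all lay below the background.

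The promoters of mitotic kinesins were examined because a common promoter element of genes made in G2 and M phase, the cell cycle genes homology region (CHR, searched as TTTGAA), often lies close to CCAAT boxes (searched as CCAAT). Both were searched on both strands of the window from 250 bases before to 50 bases after the RefSeq start of transcription (GRCh38.p14), and matches of the 2 motifs can overlap by at most 1 base. Of the 71 members, 62 had a promoter in the table, including all 17 mitotic kinesins, and the first start was used where a gene had several. The 4 mitotic kinesins listed in both cell lines are printed here from 250 bases before the start up to the start, 5′ to 3′ on the strand of the gene, with matches to CHR or CCAAT on either strand in capitals. They lie at chr10:92592880-92593129, chr5:138178862-138179111, chr16:29790501-29790750 and chr15:69414099-69414348, each on the plus strand.
KIF11: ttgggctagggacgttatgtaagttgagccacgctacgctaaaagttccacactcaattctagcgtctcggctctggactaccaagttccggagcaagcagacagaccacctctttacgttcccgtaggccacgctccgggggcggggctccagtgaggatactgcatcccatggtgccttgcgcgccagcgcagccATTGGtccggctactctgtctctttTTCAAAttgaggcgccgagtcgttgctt
KIF20A: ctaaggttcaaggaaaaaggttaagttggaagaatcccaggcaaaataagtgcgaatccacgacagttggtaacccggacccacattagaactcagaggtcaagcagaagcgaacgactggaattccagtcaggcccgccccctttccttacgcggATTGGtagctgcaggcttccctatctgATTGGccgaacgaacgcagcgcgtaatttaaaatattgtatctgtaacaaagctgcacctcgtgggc
KIF22: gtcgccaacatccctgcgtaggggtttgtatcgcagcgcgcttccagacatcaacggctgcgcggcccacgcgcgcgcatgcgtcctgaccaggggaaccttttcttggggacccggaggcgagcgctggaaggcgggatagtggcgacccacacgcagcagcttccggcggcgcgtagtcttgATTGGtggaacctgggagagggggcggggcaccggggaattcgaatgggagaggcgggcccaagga
KIF23: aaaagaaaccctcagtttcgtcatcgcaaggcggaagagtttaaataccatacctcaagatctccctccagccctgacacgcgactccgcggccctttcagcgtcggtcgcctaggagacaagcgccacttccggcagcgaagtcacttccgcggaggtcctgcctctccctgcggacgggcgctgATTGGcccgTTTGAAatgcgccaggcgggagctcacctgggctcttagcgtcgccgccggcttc

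In KIF11 the CCAAT match began 53 bases before the start (position -53) and the CHR match at -28. In KIF23 they began at -64 and -55, side by side. KIF20A had CCAAT matches at -94 and -67 and KIF22 had one at -66, and neither held TTTGAA in this window. Other forms of the CHR element were not searched, so a promoter without TTTGAA may still hold one. CHR matches were found in 10 of the 17 mitotic kinesin promoters (58.8%), in 1 of 17 transport kinesin promoters (5.88%) and in 2 of 28 tubulin promoters (7.14%), against 12% of the 14896 promoters of protein-coding genes. For CCAAT the shares were 70.6%, 29.4% and 50%, against 36.4% of all. Both motifs occurred together in 9 mitotic kinesin promoters (52.9%) and in 4.97% of all promoters.

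Within the mitotic kinesins, CHR matches were present in 7 of the 10 promoters of genes listed in either cell line (70.0%). For genes in neither list they were present in 3 of 7 (42.9%). The cell lines differed, with 7 of 9 (77.8%) for the HepG2 list. On the Huh7 list KIF11 and KIF23 had a CHR match, and KIF20A, KIF22 and KIF25 had none. The other mitotic kinesins with a CHR match were not listed in Huh7 cells. CCAAT matches were present in 9 of the 10 promoters of genes listed in either cell line (90%) and in 3 of the 7 in neither list (42.9%). The 9 were all those listed in HepG2 cells, among them the 4 listed in both. KIF25, listed in Huh7 cells alone, had neither motif. Motif matches were also present in unlisted genes, for example CHR at -35 in KIF15 and at -10 in KIF18A. A match is a description of the sequence, and no factor was measured at these promoters.

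Transport kinesins. The HepG2 list held 5 of the 25 transport kinesins (20%) and the Huh7 list held 6 (24.0%), close to the 23.9% and 21.9% of all protein-coding genes. KIF5A, a heavy chain of conventional kinesin known from axons, and KIF12 were listed in both. In HepG2 cells the others were KIF13B, a motor of membrane cargo, KIF21B, which tunes microtubule growth, and KIF26B, a kinesin-like protein of cell adhesion and signaling. In Huh7 cells they were KIF5C, another conventional kinesin heavy chain, KIF3C, a subunit of heterodimeric kinesin, KIF19, which controls the length of cilia, and KIF6.

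The 16 transport kinesins in neither list included KIF5B, the conventional heavy chain of most cell types, and KIF3A and KIF3B, the usual pair of heterodimeric kinesin. They also included KIF1A, KIF1B, KIF1C, KIF13A and KIF16B, which carry vesicles and endosomes, and KIF7 and KIF27, related to hedgehog signaling and cilia. The remainder were KIF9, KIF17, KIF21A, KIF26A, KIFC2 and KIFC3. Cytoskeleton-dependent intracellular transport (154 background genes) had 24 genes on the HepG2 list (15.6%) and 19 on the Huh7 list (12.3%). Both shares lay below the 21.6% and 19.7% of all genes of the GO background. Each list held 3 members of this term. Those were KIF23, KIF4A and TUBB in HepG2 cells and KIF23, KIF3C and TUBB in Huh7 cells.

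**Figure D2:**
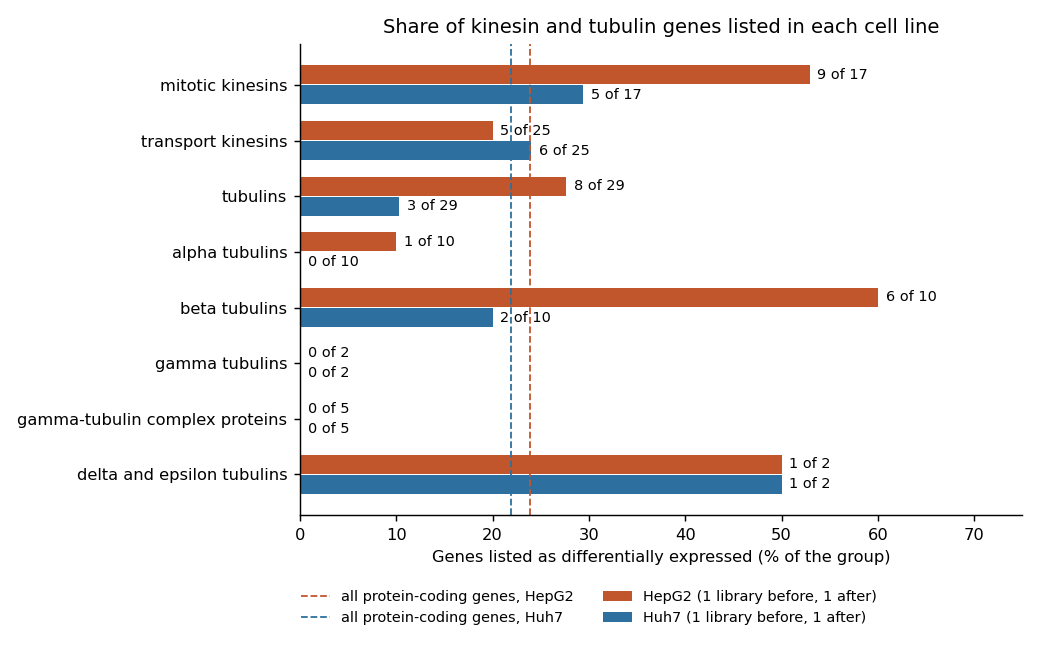
Bars give the percent of each group of genes called differentially expressed in each cell line, with the counts beside them, and dashed lines give the percent of all protein-coding genes listed (23.9% and 21.9%). In HepG2 cells mitotic kinesins (52.9%) and beta tubulins (60%) lie above the line and alpha tubulins (10%) below it.

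Tubulins. All protein-coding genes had shares of 23.9% on the HepG2 list and 21.9% on the Huh7 list. Among the 29 tubulin genes, 8 were on the HepG2 list (27.6%) and 3 on the Huh7 list (10.3%). Beta tubulins accounted for most of them. Of 10 beta tubulins, 6 were listed in HepG2 cells (TUBB, TUBB2A, TUBB2B, TUBB3, TUBB4A and TUBB8) and 2 in Huh7 cells (TUBB and TUBB8P12, now named TUBB8B). TUBB1, the beta tubulin of platelets, TUBB4B and TUBB6 were in neither list. Of 10 alpha tubulins, TUBA4A was listed in HepG2 cells and none in Huh7 cells. The alpha tubulins TUBA1A, TUBA1B, TUBA1C, TUBA3C, TUBA3D, TUBA3E, TUBA4B, TUBA8 and TUBAL3 were in neither list.

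None of the gamma tubulins (TUBG1 and TUBG2) or gamma-tubulin complex proteins was listed in either cell line. Of the remaining tubulins, TUBE1 (epsilon tubulin, a protein of centrioles) was listed in both cell lines and TUBD1 (delta tubulin) in neither. The GO term gamma-tubulin complex (21 background genes) had 1 gene on the HepG2 list (4.76%) and 4 on the Huh7 list (19%), and 0 of these were members. The shares of all genes of the GO background were 21.6% and 19.7%, so the Huh7 share lay near its background. Structural constituent of cytoskeleton (114 background genes), which includes the tubulins, held 31 listed genes in HepG2 cells (27.2%), 8 of them tubulins. It held 17 in Huh7 cells (14.9%), 3 of them tubulins. The HepG2 share lay above the GO background and the Huh7 share below it.

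Tubulin genes resemble each other so closely that reads can fit more than 1 of them, and how such reads were assigned is not given in the sources used here. Between TUBB2A and TUBB2B, which lie near each other on chromosome 6 (GRCh38, chr6:3153669-3157526 and chr6:3224261-3231730, both on the minus strand), 99.6% of protein residues were identical. TUBB8 and TUBB8P12 had 96.2% identity, and TUBB and TUBB4B had 97.5%. At the level of RNA, the share of stretches of 75 bases that no transcript of another gene contains was 46.8% for TUBB2A, 54.6% for TUBB2B, 57.9% for TUBB8P12, 68.7% for TUBB3 and 81.9% for TUBB8. It was 93.6% for TUBB and 98.5% for TUBB4A. The beta tubulins in neither list ranged from 96.0% to 100%, and the 42 kinesins ranged from 83.5% to 100% with a median of 100%.

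The lowest shares of the beta tubulins thus belonged to listed genes, and the part of read sharing in these calls was not tested. TUBB2A shared 50.1% of its stretches with TUBB2B. For TUBB3 the sharing was with an overlapping annotated gene (AC092143.1, 31.3% of its stretches). Among the alpha tubulins low shares belonged to unlisted genes instead, such as TUBA8 (64.6%, shared with the annotated transcripts of PEX26), TUBA3D (68.3%) and TUBA3E (69.6%), and TUBA4A, the listed gene, had 98.5%. TUBB8 was listed in HepG2 cells and its close relative TUBB8P12 in Huh7 cells, and 9.4% of the stretches of TUBB8 were shared with TUBB8P12. KIF4A and KIF4B, with 93.8% protein identity, shared 4.34% of the stretches of KIF4A.

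**Figure D3:**
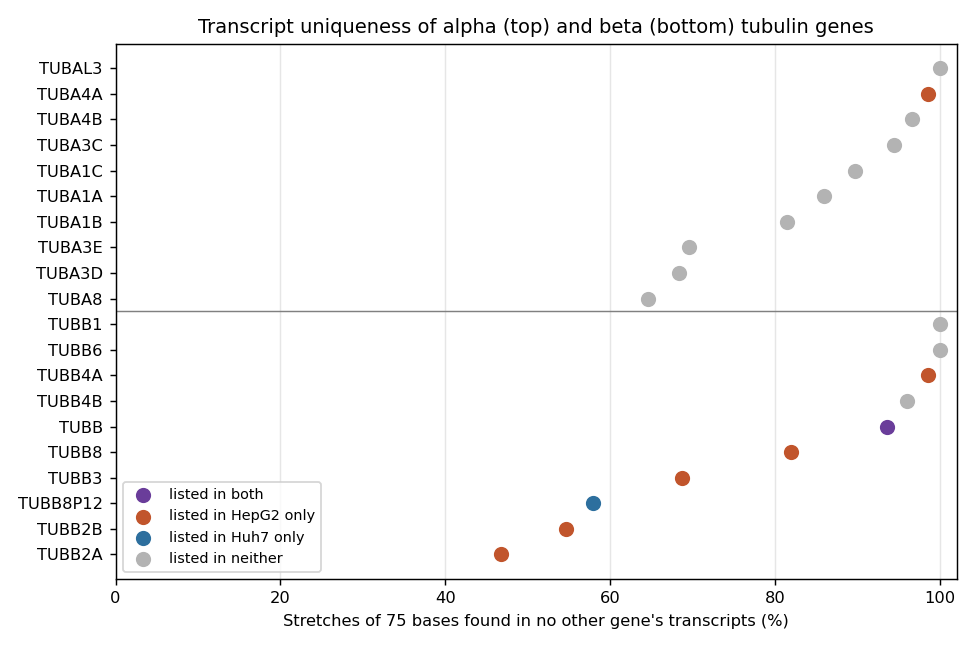
Each point is an alpha or beta tubulin gene, placed by the percent of stretches of 75 bases in its annotated transcripts that are found in no transcript of another gene, and colored by the list that holds it. Listed beta tubulins span 46.8% (TUBB2A) to 98.5% (TUBB4A), and the unlisted ones lie at 96.0% and above.

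Gene length. Longer transcripts give more reads and can be called more easily, so lengths were set beside the lists. The longest annotated transcript had a median of 3406 bases in the members listed in HepG2 cells and 3646 in those not listed, and of 3626 and 3646 bases in Huh7 cells. All protein-coding genes listed in HepG2 cells had a median of 3332 bases, against 3105 for those not listed. Within each group of members, however, the genes listed in HepG2 cells had the higher median. It was 4217 against 3464 bases for mitotic kinesins, 8745 against 5990 for transport kinesins and 2468 against 2035 for tubulins. In Huh7 cells the listed genes had the lower median among mitotic kinesins (3201 against 4282 bases) and transport kinesins (5643 against 6325), and the higher among tubulins (2903 against 2099). When all protein-coding genes were ordered by length and divided into 10 bins of equal size, the percent listed in HepG2 cells ran from 16.0% in the shortest bin to 27.4% in the longest. In Huh7 cells the bins ranged from 15.5% to 24.0%. The part of transcript length in the calls of the members was not tested.

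GO terms and pathways. Kinesin complex (60 background genes) had 16 genes on the HepG2 list (26.7%) and 14 on the Huh7 list (23.3%), of which 14 and 11 were members. The other genes were CENPE and AL139300.1 in both cell lines and the light chain KLC2 in Huh7 cells. Microtubule motor activity (84 background genes) held 25 and 20 listed genes (29.8% and 23.8%), and the genes that were not members were mainly axonemal dyneins such as DNAH1, DNAH3 and DNAH10. Plus-end-directed microtubule motor activity (15 background genes) had 5 genes on the HepG2 list (KIF11, KIF14, KIF18B, KIF20B and KIF5A) and 4 on the Huh7 list (KIF11, KIF19, KIF5A and KIF5C), all of them members. Among broader terms, 22.9% and 19.5% of the 437 genes of microtubule were listed in HepG2 and Huh7 cells, beside the 21.6% and 19.7% of the GO background. For spindle the shares were 20.2% and 15.4% of its 356 genes, both below the background.

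**Figure D4:**
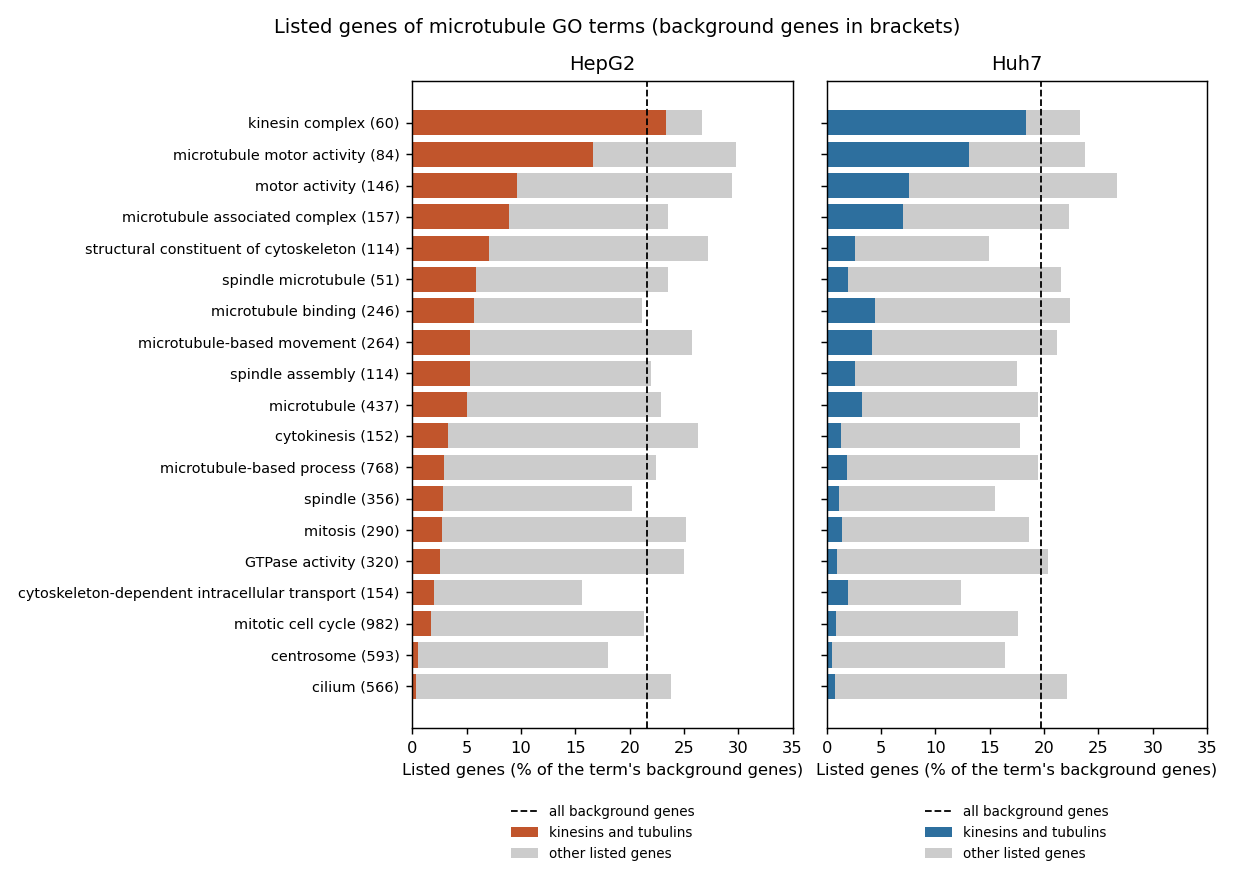
Bars give the listed genes of each GO term with at least 50 background genes, in percent of those genes, divided into kinesins and tubulins (colored) and other listed genes (gray), for HepG2 (left) and Huh7 cells (right), and dashed lines give all background genes (21.6% and 19.7%). Members supply 14 of 16 and 11 of 14 listed genes of kinesin complex, and 10 of 72 and 4 of 55 listed genes of spindle.

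In the KEGG tables the tubulins appeared in Phagosome, Gap junction and Pathogenic Escherichia coli infection. The same 7 tubulins (TUBA4A, TUBB, TUBB2A, TUBB2B, TUBB3, TUBB4A and TUBB8) entered all 3 pathways in HepG2 cells, and TUBB and TUBB8P12 did so in Huh7 cells. They made up 7 of the 15 listed genes of Pathogenic Escherichia coli infection, 7 of the 22 of Gap junction and 7 of the 40 of Phagosome in HepG2 cells. In Huh7 cells they made up 2 of 11, 2 of 22 and 2 of 38. In the same order, these pathways have 55, 89 and 155 background genes. The HepG2 list held 15, 22 and 40 of them, beside 23.9% of all protein-coding genes. The Huh7 list held 11, 22 and 38 of them, beside 21.9%. Whether any pathway stood out was not tested. Dopaminergic synapse held KIF5A in HepG2 cells and KIF5A and KIF5C in Huh7 cells, and MicroRNAs in cancer held KIF23 in both. The other listed kinesins were in no KEGG pathway of these tables.

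Partners of kinesins and tubulins. Genes that work with the mitotic kinesins were counted from a list of 31 spindle and checkpoint genes, with 13 on the HepG2 list (41.9%) and 10 on the Huh7 list (32.3%), beside 23.9% and 21.9% of all protein-coding genes. This list was chosen by hand with earlier results known, and the broader GO term spindle lay below its background in both cell lines. The 5 genes listed in both were PRC1, which bundles the midzone microtubules on which KIF4A and KIF20A work, ANLN of the contractile ring, ASPM of the spindle poles, and NUF2 and SPC24 of the outer kinetochore. PLK1, TPX2, BUB1B, TACC3, SPAG5, SPC25, KNSTRN and AURKC were listed in HepG2 cells alone, and AURKA, MAD2L1, NUMA1, NUSAP1 and TACC1 in Huh7 cells alone. The chromosomal passenger genes AURKB, BIRC5, CDCA8 and INCENP and the KIF23 partner RACGAP1 were in neither list.

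The motor CENPE and partners of transport kinesins made up a list of 12 genes. On the HepG2 list was 1 of them (8.33%, CENPE). On the Huh7 list were 4 (33.3%), namely CENPE, KLC2, and the scaffolds MAPK8IP2 and MAPK8IP3. The shares of all protein-coding genes were 23.9% and 21.9%. Cytoplasmic dynein is the motor that runs opposite to most kinesins. Of 26 genes of cytoplasmic dynein, dynactin and their adaptors, 1 was on the HepG2 list (3.85%, ACTR1A) and 0 on the Huh7 list. Of 32 microtubule-associated and severing proteins, 6 (18.8%) and 8 (25.0%) were listed, with CLIP2 and MAP1B in both cell lines. Of 31 genes of tubulin folding and modification, 7 (22.6%) and 6 (19.4%) were listed, among them the tubulin tyrosine ligase-like genes TTLL3 and TTLL9 in both. The shares of the last 2 lists lay near those of all protein-coding genes.

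**Figure D5:**
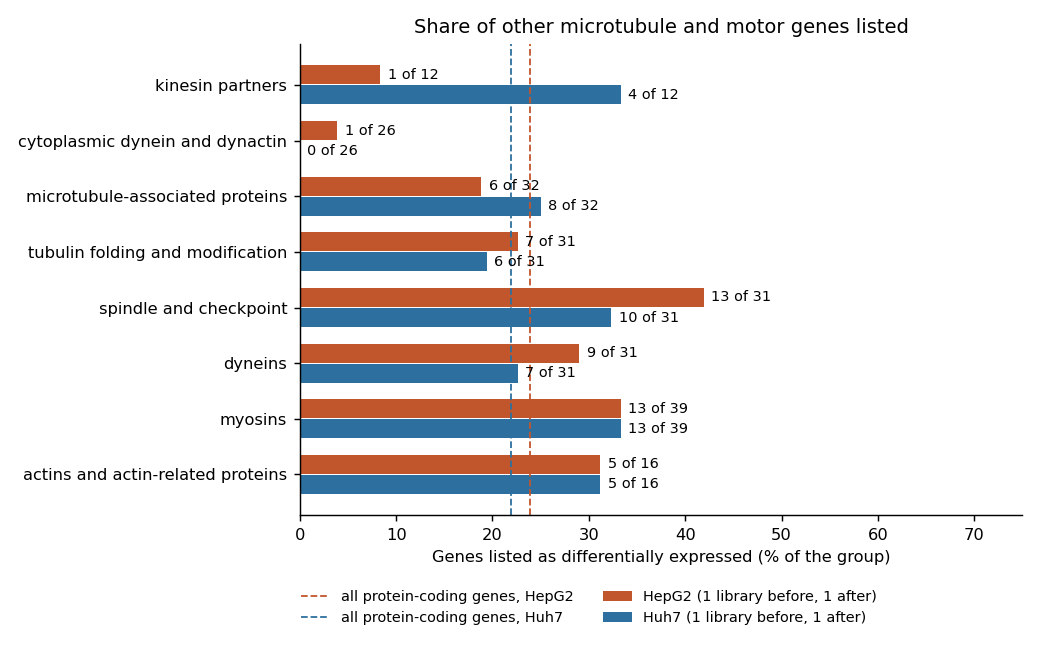
Bars give the percent of each list of other microtubule and motor genes that was listed in each cell line, with counts, and dashed lines give all protein-coding genes (23.9% and 21.9%). Spindle and checkpoint genes lie above the lines (41.9% and 32.3%), and cytoplasmic dynein and dynactin lie far below them (1 and 0 of 26).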

How the data were processed

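Total RNA of HepG2 and Huh7 cells before and after SDT was sequenced by the authors, with 1 library per group. The submitters’ processing notes name Bowtie2 2.2.8, HISAT2, StringTie 1.3.1 and Cuffdiff 2.1.1. For the calls of differential expression, the study's methods name Cuffdiff and its results name edgeR, so the program behind the lists is uncertain. Differentially expressed mRNAs were those with an adjusted p-value under 0.05, and the genome build and annotation are not given in the sources used here. The authors deposited GO (GOseq) and KEGG (KOBAS) tables with numbers of listed and background genes, identifiers, and a raw and a corrected p-value per term, and none of these p-values was used. Calls from single libraries carry no biological spread, so the lists describe these libraries.

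For each comparison, the identifiers under all GO terms were joined into 1 list (4783 and 4369 genes, of which 15 and 9 were not protein-coding in GENCODE release 29). Symbols, gene types, transcripts and coding parts came from GENCODE 29, by gene identifier. Members and lists were chosen with earlier results of these data known, and dyneins, myosins and actins were added as comparison families after the members' lists had been seen. Of 134 symbols in the lists of partners, 132 matched. No test of enrichment was made. GO terms named were a set list of microtubule terms and the 5 terms per cell line, of at most 500 background genes, that held the most members. Protein identity was computed over global alignments (Biopython 1.88, BLOSUM62) of the longest complete coding sequence. Uniqueness used all annotated transcripts on the sense strand, and the read length is not given in the sources used here. Scripts ran in Python 3.11.15 and were tested on simulated data. Alternatives concerned the table, the width and branch of the GO terms, the members, their roles and the background.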

Additional observations from a re-analysis of the deposited data

How the results depend on the processing

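Of 76 values recomputed under alternatives, 62 stayed within 1.5 times the value reported and 14 did not. Several alternatives could hardly move a count, so this tally is no measure of stability. Listed members stood under many GO terms each, and the TUBGCP proteins and TUBAL3, left out in an alternative, were unlisted. The KEGG tables in place of the GO tables, which hold only genes assigned to a pathway, listed 9 members for HepG2, 5 for Huh7 and 3 for both. By group, in the same order, they listed 1, 1 and 1 mitotic kinesins, 1, 2 and 1 transport kinesins, and 7, 2 and 1 tubulins. Leaving out the members with a paralog of at least 90% protein identity kept 51 members. The HepG2 list held 14 of these and the Huh7 list 12. Both shares then lay above those of all protein-coding genes (23.9% and 21.9%), unlike the Huh7 share of all 71 members. The shares of the cell lines also lay closer together than those of all members. The rule of 1.5 times compared counts and took no account of the smaller number of members. Of the 11 tubulins kept, 1 was listed (TUBE1), and it was in both lists. The background was 21.6% and 19.7% over all GO genes and stayed within 1.5 times the value reported for genes of similar length. Adding the KEGG tables, keeping GO terms of at most 500 background genes and keeping biological processes alone each gained 0 and lost 0 members in either cell line. No paired analysis was possible because the deposited tables give lists of genes and no value for any library, and for the same reason no library could be left out. Direction, level and depth were not analysed here.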

Other observations

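Other cytoskeletal motor families were counted beside the kinesins, and the shares of all protein-coding genes were 23.9% for HepG2, 21.9% for Huh7 and 11.4% for both lists. Of 39 myosin genes, the motors of actin filaments, 13 (33.3%) were on each list and 5 (12.8%) on both (MYH7, MYH7B, MYO15A, MYO16 and MYO7B). Of 31 dynein genes, which here include the axonemal heavy chains of motile cilia and the cytoplasmic chains counted above, 9 (29%) and 7 (22.6%) were on the HepG2 and the Huh7 list, with DNAH1, DNAH3, DNAH10 and DNAI1 (12.9%) in both. Of 16 actins and actin-related proteins, 5 (31.2%) were listed in each cell line, and ACTA1, ACTR2 and ACTR3C were listed in both. The 42 kinesins as a whole had 14 (33.3%) and 11 (26.2%) listed genes. These families were chosen after the kinesins had been seen, and no difference between them was tested.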
